A study of Mus musculus with 25 samples.

Results

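The enzymes that make, salvage and spend nicotinamide adenine dinucleotide (NAD+) in spinal cord cholinergic neurons were examined as a list of 10 genes, taken by symbol from the 50559 genes counted: the salvage enzymes *Nampt* and *Nmrk1*, the NMNAT enzymes *Nmnat1*, *Nmnat2* and *Nmnat3*, the sirtuins *Sirt1*, *Sirt2* and *Sirt3*, and the NAD+ hydrolases *Sarm1* and *Cd38*. All 10 had at least 10 counts summed over the libraries and entered the tests. The RNA was bound to ribosomes that carried an HA tag (RiboTag) and was pulled down (immunoprecipitated, IP) from spinal cords of C57BL/6J males, 6-mo-old, with 1 cord per library, at zeitgeber time 8 h after lights-on (ZT8) or 20 h (ZT20). *ChAT-BKO* mice were *ChAT-Cre;RiboTag fx/+;Bmal1 fx/fx* and lacked the clock activator *Bmal1* in cells with the *ChAT* driver, and controls were *ChAT-Cre;RiboTag fx/+* without the floxed *Bmal1* alleles, so that both genotypes carried the same Cre and the same tag. There were 6 mice in each of the 4 groups, 24 IP libraries in all, and 1 pooled input of whole spinal cord RNA, and all were handled on the same day.

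NAD+ is recycled from nicotinamide by NAMPT, the slow step of the salvage route, or made from nicotinamide riboside by NMRK1, and both routes end in an NMNAT enzyme. NMNAT2 is the short-lived enzyme that axons must keep receiving from the cell body, and its loss sets off SARM1, the NAD+ hydrolase that carries out axon self-destruction. Sirtuins spend NAD+ to remove acyl groups from proteins, and in liver and fat the clock drives *Nampt* through E-boxes bound by CLOCK and BMAL1, while SIRT1 feeds back on the clock.

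In the IP libraries the NAD+ genes were detected over a wide range and did not differ detectably with *Bmal1* loss or between ZT8 and ZT20. With only these times sampled, a daily rhythm with similar levels at both would not be seen. None of the 10 was called, at an adjusted p under 0.05 from edgeR, in any of 7 comparisons. *Sarm1* was enriched in the IP over whole cord and *Cd38* was strongly depleted. The largest difference beyond the spread between libraries was a higher *Sirt1* at ZT20 than at ZT8 in *ChAT-BKO* neurons, which missed the adjusted threshold.

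Total counts were 4.04 to 31.7 M per IP library and 7.4 M in the input, and replicate libraries differed by more than sampling noise. *Arntl*, the symbol of *Bmal1* in the count table, had at ZT8 6.22 to 9.99 CPM (counts scaled to the total of the library) in controls and 1.97 to 3.3 CPM in *ChAT-BKO* neurons, a change of -1.64 on the log2 scale (edgeR, adjusted p = 1.56e-05). At ZT20 it had 7.6 to 10.9 CPM in controls and 1.35 to 2.8 CPM in *ChAT-BKO* neurons, a change of -2.08 on the log2 scale (edgeR, adjusted p = 1.98e-07). Control levels of *Arntl* were close to those of *Nampt*, so a change of this size was callable at such counts. The cholinergic label held against its markers, since 7 of 7 cholinergic markers were above the input in the IP, and 0 of 6 markers each of oligodendrocytes, astrocytes and microglia were. In bulk libraries such as these, fewer cells of a type and less RNA per cell cannot be told apart.

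*Nampt* (chr12:32819545-32853349, plus strand, GRCm38), the rate-limiting enzyme of salvage, was steady across the 4 groups. In controls at ZT8 it ran from 9.94 to 14.7 CPM with a median of 11.1, and in *ChAT-BKO* neurons at ZT8 from 8.14 to 13 CPM with a median of 10.7. At ZT20 it ran from 10.1 to 12.7 CPM in controls, median 11.5, and from 7.81 to 12.8 CPM in *ChAT-BKO* neurons, median 10.9. The groups overlapped in every comparison. The log2 fold change of *ChAT-BKO* over control was -0.11 at ZT8 (SE 0.124), -0.06 at ZT20 (SE 0.105) and -0.09 over both times, with a 95% interval of -0.25 to 0.08 for the last (adjusted p = 0.915 from edgeR). Between ZT8 and ZT20 the control difference was 0.00 on the log2 scale, with an interval of -0.21 to 0.21, so that a night-to-day difference beyond these bounds was not seen.

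The *Nampt* sequence before the RefSeq transcript start is shown because BMAL1 binds E-boxes. It lies at chr12:32820085-32820334 on the plus strand of GRCm38.p6, inside the annotated span of *Nampt*, which starts upstream at 32819545. The 250 bases hold no CACGTG. Capitals mark the only AGGTCA, the core of the element bound by ROR and REV-ERB factors.

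Nampt: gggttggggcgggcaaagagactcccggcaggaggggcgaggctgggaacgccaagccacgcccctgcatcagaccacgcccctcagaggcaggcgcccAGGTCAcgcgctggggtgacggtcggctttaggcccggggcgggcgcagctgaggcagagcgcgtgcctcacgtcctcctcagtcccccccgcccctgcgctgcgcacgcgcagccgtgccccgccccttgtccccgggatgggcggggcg

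Both strands were searched in windows from 250 bases before to 50 after each start, and 12 such windows were found for the 10 members. The E-box CACGTG was in 7.15% of 32851 windows of all genes and, among the members, in that of *Sirt1*. AGGTCA was in 16.26% of all windows and in those of *Nampt* and *Nmnat3*. The variant E-box CACGTT was in 4.68% of all windows and in that of *Nmnat2*, and the D-box TTATGTAA was in 0.94% of all windows and in no member's. A match is a description of these letters and not a bound site.

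*Nmrk1* (chr19:18631950-18652428, plus strand), the riboside kinase, had a coefficient of variation of 19.4% over the IP libraries, against 13.7% for *Nampt*. It ran from 3.51 to 7.03 CPM in controls at ZT8 (median 4.72), from 3.91 to 6.89 CPM in *ChAT-BKO* neurons at ZT8 (median 5.36), from 3.76 to 6.43 CPM in controls at ZT20 (median 5.53) and from 3.7 to 6.28 CPM in *ChAT-BKO* neurons at ZT20 (median 4.65). All 4 groups overlapped. The *ChAT-BKO* effect was 0.15 at ZT8 and -0.23 at ZT20 on the log2 scale, and the difference of these effects was -0.37, with an interval of -0.83 to 0.08 (adjusted p = 1 from edgeR).

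The 3 NMNAT transcripts stood far apart in level. *Nmnat2* (chr1:152954993-153119261, plus strand), the axonal maintenance enzyme, was the most even of the members, with a coefficient of variation of 4.14% over the 24 IP libraries. It ran from 185 to 205 CPM in controls at ZT8 (median 201), from 197 to 217 CPM in *ChAT-BKO* neurons at ZT8 (median 209), from 190 to 208 CPM in controls at ZT20 (median 199) and from 196 to 217 CPM in *ChAT-BKO* neurons at ZT20 (median 210). Over both times, 7 of the 12 *ChAT-BKO* libraries were above the highest control. The log2 fold change over both times was 0.07 (SE 0.029, interval 0.01 to 0.13), a ratio of mean CPM of 1.05, with an unadjusted p of 0.0329 and an adjusted p = 0.607 from edgeR. Between ZT8 and ZT20 it did not differ beyond an interval of -0.09 to 0.10 in controls.

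*Nmnat1* (chr4:149467572-149485202, minus strand), the nuclear enzyme, ran from 5.69 to 8.78 CPM in controls at ZT8 (median 6.38), from 5.63 to 7.96 CPM in *ChAT-BKO* neurons at ZT8 (median 6.28), from 6.27 to 8.22 CPM in controls at ZT20 (median 7.32) and from 5.41 to 7.13 CPM in *ChAT-BKO* neurons at ZT20 (median 6.71). At ZT20 0 of the 6 *ChAT-BKO* libraries exceeded the control median, although the groups overlapped. The log2 fold change there was -0.21 (SE 0.117, interval -0.46 to 0.03, adjusted p = 0.828 from edgeR).

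*Nmnat3* (chr9:98287435-98420438, plus strand), the mitochondrial enzyme, was near the limit of detection, with 1 to 32 counts per IP library. It ran from 1.16 to 1.9 CPM in controls at ZT8 (median 1.27), from 0.245 to 1.57 CPM in *ChAT-BKO* neurons at ZT8 (median 0.95), from 0.319 to 2.25 CPM in controls at ZT20 (median 1.38) and from 0.578 to 1.32 CPM in *ChAT-BKO* neurons at ZT20 (median 0.925). The *ChAT-BKO* medians were the lower at both times, with overlap. Over both times the log2 fold change was -0.46 (SE 0.222, interval -0.91 to -0.004), with an unadjusted p of 0.048 and an adjusted p = 0.679 from edgeR.

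**Figure D1:**
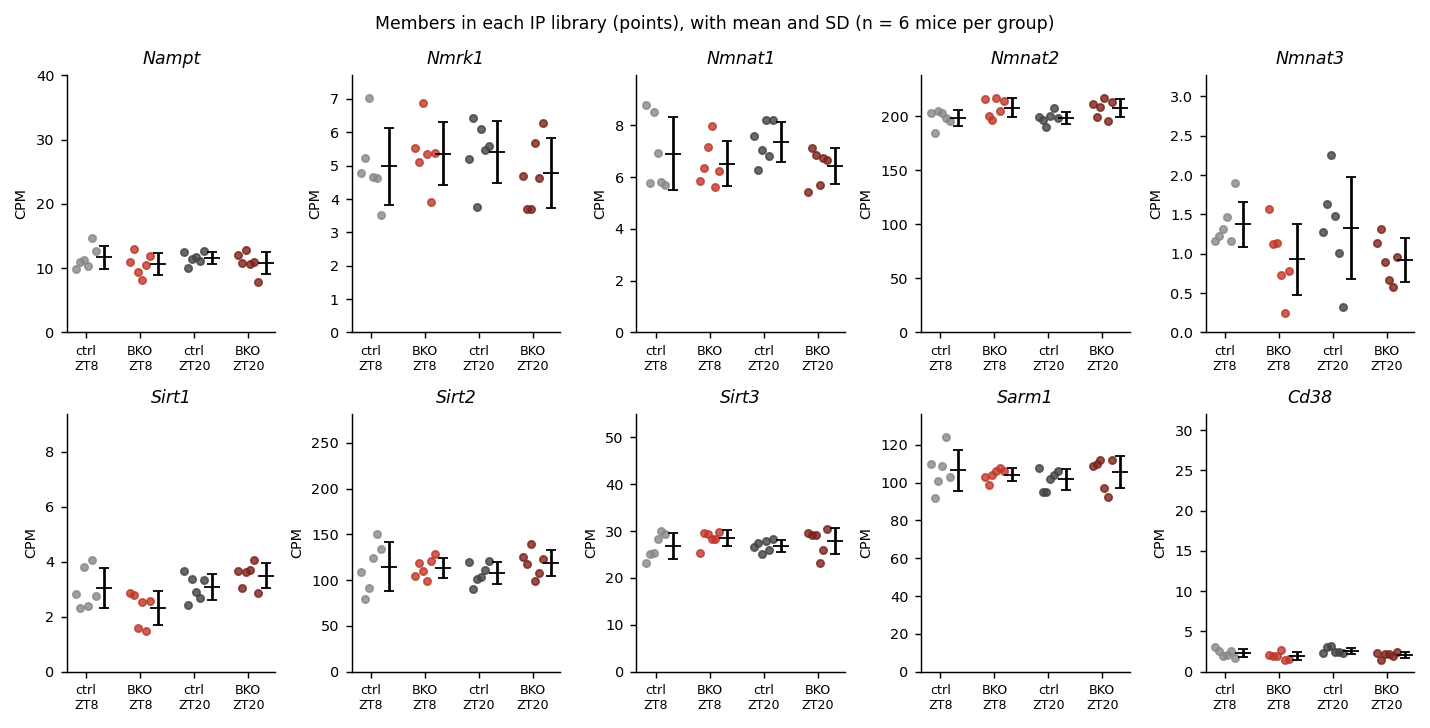
CPM of each member in every IP library, by group (ctrl, control; BKO, *ChAT-BKO*), each y axis from 0, with points for mice and bars for the mean and SD (n = 6). The groups of every member overlap, except *Sirt1* in *ChAT-BKO* neurons, where all 6 libraries of ZT20 lie above the 6 of ZT8.

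*Sirt1* (chr10:63319005-63381704, minus strand), the nuclear deacetylase that binds CLOCK and BMAL1, gave the widest day-night difference. In *ChAT-BKO* neurons it ran from 1.47 to 2.85 CPM at ZT8 (median 2.56) and from 2.86 to 4.05 CPM at ZT20 (median 3.65). In controls it ran from 2.33 to 4.06 CPM at ZT8 (median 2.79) and from 2.44 to 3.67 CPM at ZT20 (median 3.12). All 6 *ChAT-BKO* libraries of ZT20 were therefore above the 6 of ZT8, by a narrow margin, whereas the controls overlapped throughout. Groups without overlap occurred in 1.18% of all genes in that comparison.

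The log2 difference of *Sirt1* between ZT20 and ZT8 was 0.55 in *ChAT-BKO* neurons (SE 0.182, interval 0.17 to 0.93), with an unadjusted p of 0.00726 and an adjusted p = 0.276 from edgeR. It was 0.07 in controls (SE 0.179, interval -0.31 to 0.44, adjusted p = 0.966 from edgeR). The difference between these 2 values was 0.48 (interval -0.02 to 0.98, unadjusted p of 0.0608, adjusted p = 1 from edgeR), so the genotypes were not shown to differ. Over both genotypes the ZT20 value was higher by 0.31 (SE 0.123, adjusted p = 0.222 from edgeR), and 11 of the 12 ZT20 libraries were above the ZT8 median. These rest on 6 to 85 counts per IP library. Summed endothelial markers (4 of 4 measured, none at 0) in *ChAT-BKO* neurons ran from 6.61 to 10.6 CPM at ZT8 and from 9.52 to 15.3 CPM at ZT20, and in controls from 6.97 to 11.6 and from 9.39 to 17.7 CPM. Summed skeletal muscle markers (6 of 6 measured, none at 0) ran from 2.44 to 124 CPM at ZT8 (median 4.07) and from 3.04 to 75.6 CPM at ZT20 (median 55.5) in *ChAT-BKO* neurons, and from 1.42 to 76.4 (median 21.8) and from 4.62 to 20.5 CPM (median 7.68) in controls. The part of either in the *Sirt1* values was not tested. The exons of *Sirt1* also overlap an antisense gene by 65 bases, and whether counting used strand is not given in the sources used here.

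The stretch before the RefSeq start of *Sirt1* is shown because its window is the only member window with the E-box CACGTG. It lies at chr10:63339066-63339185 on the minus strand of GRCm38.p6, inside the annotated span of *Sirt1*, which on this strand starts upstream at 63381704. Capitals mark the 2 CACGTG motifs, which begin 115 and 43 bases before the RefSeq start.

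Sirt1: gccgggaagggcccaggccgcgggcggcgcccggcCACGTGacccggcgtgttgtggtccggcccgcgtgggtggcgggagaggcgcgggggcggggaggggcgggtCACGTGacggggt

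The *ChAT-BKO* effect on *Sirt1* was -0.28 at ZT8 (interval -0.71 to 0.15) and 0.20 at ZT20 (interval -0.13 to 0.52) on the log2 scale, with adjusted p = 1 and 0.875 from edgeR.

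*Sirt2* (chr7:28766735-28788661, plus strand), a largely cytoplasmic deacetylase that is abundant in myelinating oligodendrocytes, varied more between libraries than between groups. It ran from 79.4 to 150 CPM in controls at ZT8 (median 117), from 98.5 to 128 CPM in *ChAT-BKO* neurons at ZT8 (median 115), from 90.5 to 121 CPM in controls at ZT20 (median 107) and from 99.4 to 139 CPM in *ChAT-BKO* neurons at ZT20 (median 120). The control libraries of ZT8 spanned those of the other groups. Its log2 fold change of *ChAT-BKO* over control was -0.01 at ZT8 and 0.14 at ZT20 (interval -0.03 to 0.31, adjusted p = 0.837 from edgeR).

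*Sirt3* (chr7:140863666-140882309, minus strand), the main mitochondrial deacetylase, ran from 23.1 to 30 CPM in controls at ZT8 (median 26.8), from 25.3 to 29.9 CPM in *ChAT-BKO* neurons at ZT8 (median 28.9), from 25.1 to 28.3 CPM in controls at ZT20 (median 27) and from 23.2 to 30.5 CPM in *ChAT-BKO* neurons at ZT20 (median 29.2). The groups overlapped, although 4 of the 6 *ChAT-BKO* libraries of ZT20 were above the highest control of that time. Over both times the log2 fold change was 0.08 (SE 0.05, interval -0.03 to 0.18, adjusted p = 0.844 from edgeR). Its exons overlap those of *Ric8a* by 418 bases and of *Psmd13* by 342 bases on the opposite strand, and those of *Sirt2* overlap *Nfkbib* by 42 bases.

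*Sarm1* (chr11:78472330-78497754, minus strand) was abundant and level across the 4 groups. It ran from 91.9 to 124 CPM in controls at ZT8 (median 106), from 98.5 to 108 CPM in *ChAT-BKO* neurons at ZT8 (median 105), from 94.9 to 108 CPM in controls at ZT20 (median 103) and from 92.5 to 112 CPM in *ChAT-BKO* neurons at ZT20 (median 110). At ZT20 4 of the 6 *ChAT-BKO* libraries were above the highest control and the other 2 were among the lowest. The log2 fold change of *ChAT-BKO* over control was -0.03 at ZT8 (SE 0.064), 0.05 at ZT20 (SE 0.06) and 0.01 over both times, with an interval of -0.07 to 0.10 (adjusted p = 0.99 from edgeR). Between ZT8 and ZT20 it was -0.06 in controls (interval -0.20 to 0.07) and 0.02 in *ChAT-BKO* neurons (interval -0.10 to 0.14). From a separate series around the day in younger mice, the paper reports rhythmic *Sarm1* mRNA in these neurons. The times used here do not test that rhythm.

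*Cd38* (chr5:43868553-43912375, plus strand), an NAD+ glycohydrolase of the cell surface, ran from 1.71 to 3.1 CPM in controls at ZT8 (median 2.28), from 1.47 to 2.73 CPM in *ChAT-BKO* neurons at ZT8 (median 1.91), from 2.28 to 3.19 CPM in controls at ZT20 (median 2.42) and from 1.45 to 2.48 CPM in *ChAT-BKO* neurons at ZT20 (median 2.23). The *ChAT-BKO* medians were the lower at both times, with overlap. The log2 fold change over both times was -0.24 (SE 0.126, interval -0.50 to 0.02, adjusted p = 0.749 from edgeR). *Cd38* in the IP lay at -3.63 on the log2 scale over the input, and how much of it came from cholinergic neurons was not tested.

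The counts of members can be read against those of all genes. At ZT8 edgeR called 0 of the 10 members beside 0.184% of all genes, at ZT20 0 beside 0.23%, and over both times 0 beside 0.653%. Unadjusted p under 0.05 occurred for 0, 0 and 2 members, the 2 being *Nmnat2* and *Nmnat3*, beside 7.28% of all genes in the last comparison. For the difference of the genotype effect between times edgeR called 0 members beside 0% of all genes. An unadjusted p under 0.05 occurred there for 0 members beside 3.9% of all genes. For ZT20 against ZT8 it called 0 members beside 0.115% in controls, 0 beside 0.285% in *ChAT-BKO* neurons and 0 beside 2.62% over both genotypes, with 0, 1 and 1 members at an unadjusted p under 0.05, *Sirt1* both times, beside 8.25%, 9.42% and 14.3% of all genes. DESeq2 and limma voom also called 0 members in each of the 7, and 0 of all genes for the difference, but DESeq2 gave *Nmnat3* no adjusted p for ZT20 against ZT8 in controls or in *ChAT-BKO* neurons. Under DESeq2 the same members were under an unadjusted 0.05. Under limma voom they were too, except that *Nmnat3* passed at ZT8 in place of over both times. The comparisons share samples, since the controls of ZT8 enter both the genotype comparison of ZT8 and the day-night comparison of controls. The median log2 fold change of the 10 members was -0.04 over both times, beside 0.00 for all genes.

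**Figure D2:**
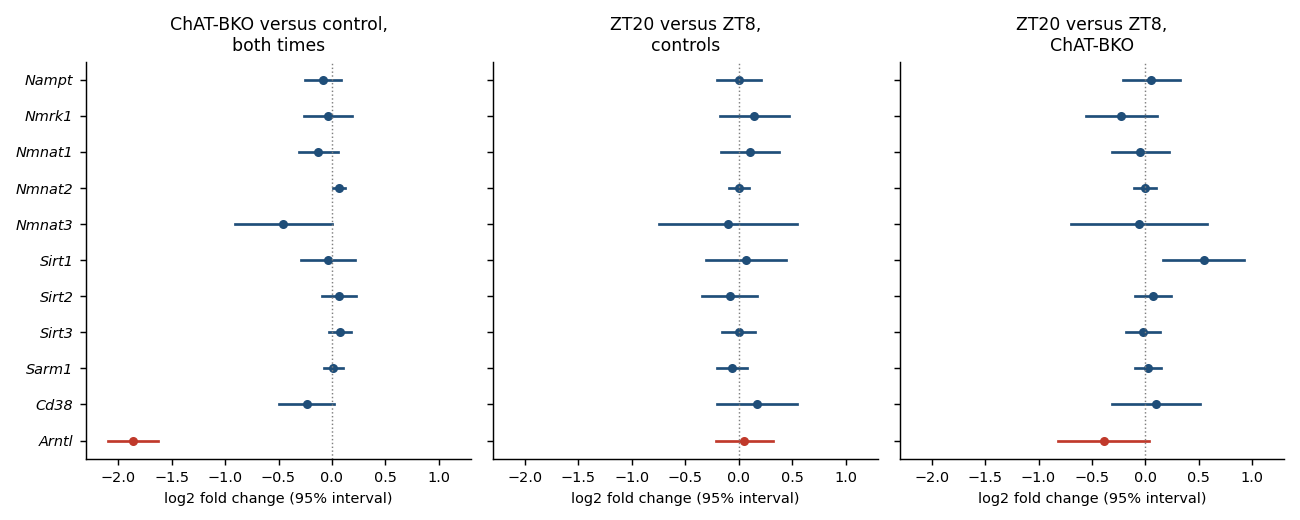
Log2 fold changes with 95% intervals from edgeR for the 10 members and *Arntl* (red) in 3 comparisons. The members lie near 0, with intervals that are narrow for *Nmnat2* and *Sarm1* and wide for *Nmnat3*, while *Arntl* lies at -1.86 for *ChAT-BKO* versus control.

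Compared per kilobase of exon, since only such levels can be set between genes, *Nmnat2* led in the IP with 35.1 ± 1.46 CPM per kb (SD, n = 24), followed by *Sirt2* with 22.6 ± 3.25 and *Sarm1* with 18.6 ± 1.3. *Sirt3* had 4.61 ± 0.365 CPM per kb, *Nmnat1* 2.24 ± 0.327, *Nampt* 2.21 ± 0.303 and *Nmrk1* 1.39 ± 0.27. *Cd38* had 0.577 ± 0.124, *Sirt1* 0.558 ± 0.13 and *Nmnat3* 0.227 ± 0.093 CPM per kb. Of the neighbours in this order, *Nmnat1* was above *Nampt* in 14 of the 24 libraries and *Cd38* above *Sirt1* in 12, so these 2 pairs were not separated. Every other neighbour was separated in at least 22 libraries on this length. The order changed with the length used: per kb of the longest transcript *Sirt2* led with 53.7 CPM per kb, ahead of *Nmnat2* with 43.8, and *Nmrk1* with 2.65 came before *Nmnat1* with 2.56 and *Nampt* with 2.47.

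The pull-down separated the members. *Sarm1* was at 1.35 ± 0.10 on the log2 scale over the input (SD, n = 24 libraries against 1 input), above it in 24 of 24 libraries. *Nmrk1* was at 0.40 ± 0.28, above the input in 20 libraries, and *Nmnat2* at 0.22 ± 0.06, above it in 24. The other 7 members were below the input on average: *Nmnat1* at -0.42, *Sirt3* at -0.86, *Sirt2* at -1.19, *Nmnat3* at -1.38, *Sirt1* at -1.51, *Nampt* at -1.71 and *Cd38* at -3.63. Among all 13721 genes of at least 1 CPM, 5254 were above the input on average, so a mix of members above and below it is not particular to them. The median of these genes was -0.33, so *Nmnat1* lay near the middle of all genes. Scaling the input together with the IP libraries added about the same to each ratio and put *Nmnat1* at 0.02. The single input gives no error on its side and no test.

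Cell type markers give the scale of these ratios. The median was 2.31 for 7 cholinergic markers, -3.65 for 6 of oligodendrocytes, -4.42 for 6 of astrocytes and -4.25 for 6 of microglia. It was -3.77 for 4 endothelial markers and -3.4 for 6 of skeletal muscle. *Cd38* thus lay in the range of the glial markers and also of the endothelial and muscle ones. *Sarm1* lay just above the lowest cholinergic marker, *Isl1* at 1.21. Of 20 other genes of axon degeneration, 12 were above the input too, and the 20 ran from -2.77 to 2.65, so enrichment was not particular to *Sarm1*. Glial markers overlapped between the groups. Summed oligodendrocyte markers (6 of 6 measured, none at 0) ran from 1660 to 1940 CPM in controls and from 1680 to 2290 CPM in *ChAT-BKO* neurons at ZT8, and from 1660 to 2180 and 1720 to 2490 CPM at ZT20, against 23300 CPM in the input. Summed microglial markers ran from 9.58 to 16.2 CPM over the IP libraries, against 225 CPM in the input. Whether carried-over glial RNA contributes to *Sirt2* and *Cd38* in the IP was not tested, and the relations given further on cannot decide it.

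**Figure D3:**
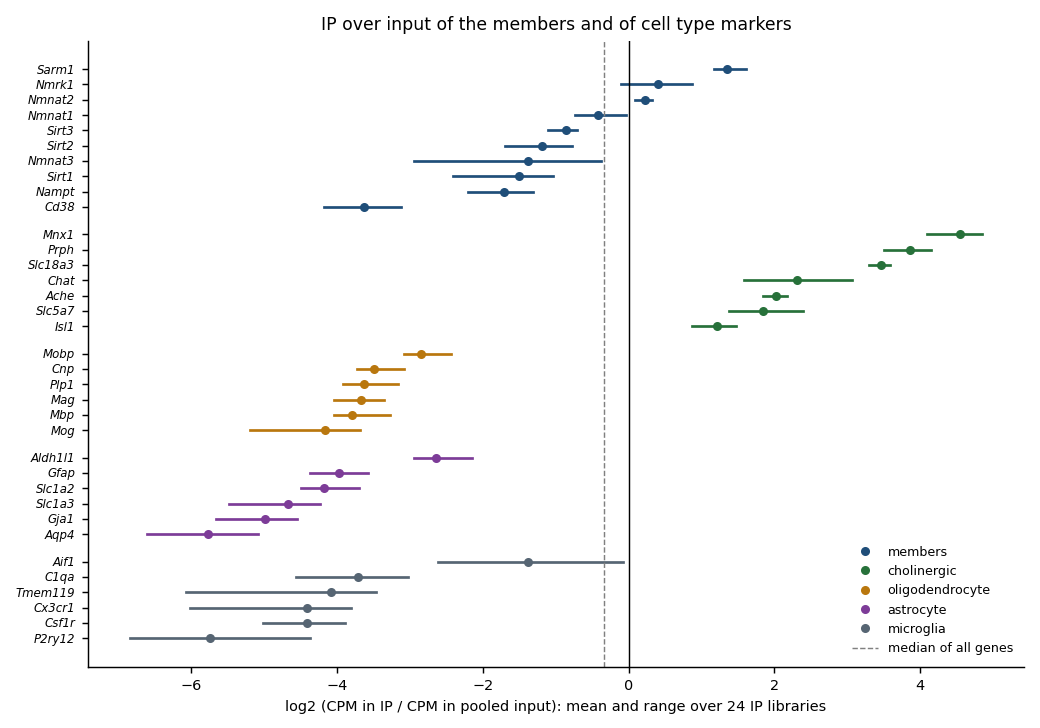
Log2 ratio of CPM in the IP over the pooled input, as the mean (point) and range (line) over 24 IP libraries, for the members and for markers of 4 cell types, with a dashed line at the median of all genes (-0.33). *Sarm1* lies on the side of the cholinergic markers and *Cd38* among the glial ones. Endothelial and skeletal muscle markers, also depleted, are not drawn.

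Libraries of the same group still differed, and some members moved together. With group means removed, over the 24 libraries, *Sarm1* and *Sirt2* had a Pearson's r of 0.76, *Sirt2* and *Sirt3* 0.65, *Nampt* and *Sirt1* 0.51, and *Nmrk1* and *Sirt2* -0.44. The genes most like *Sarm1*, among 13720 compared, were *Zfyve9* (r = 0.877), *Slc45a4*, *Dgkq*, *Hspb6* and *Ncln* (the last 3 at 0.863), and those most like *Nampt* were *Nrxn3* (r = 0.828), *Zfp609*, *Uty*, *Son* and *Zfp62* (0.792). These r values describe libraries that share depth and handling.

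Each member was set against 3 glial marker scores, 30 relations in all, by permutation tests. Group means were removed first and values were then permuted over all libraries, not within groups, so the p values are somewhat too small. No relation of *Sirt2* with the oligodendrocyte markers was detected (r = -0.19, rho = -0.11, n = 24, permutation p = 0.383 and 0.597, adjusted p = 0.546). Nor was one of *Cd38* with the microglial markers (r = -0.32, rho = -0.31, permutation p = 0.129 and 0.136, adjusted p = 0.367). The summed oligodendrocyte markers ran only from 1660 to 2490 CPM in the IP, so a part from glial RNA could go unseen in such relations. Of the 30, 1 passed the adjustment by Pearson's r, *Nampt* with the astrocyte score (r = 0.68, permutation p = 0.00024, adjusted p = 0.0072, rho = 0.68, permutation p = 0.00036). Without the 2 libraries farthest from the median score its r was 0.71. *Nmrk1* with the same score passed by Spearman's rho (rho = -0.59, permutation p = 0.00284, adjusted p = 0.0426) but not by Pearson's r (r = -0.54, permutation p = 0.00541, adjusted p = 0.0611), and its r without those 2 libraries was -0.55. Summed astrocyte markers (6 of 6 measured, none at 0) ran from 166 to 218 CPM in controls and from 174 to 240 CPM in *ChAT-BKO* neurons at ZT8, and from 180 to 219 and 175 to 263 CPM at ZT20, against 3630 CPM in the input. Their part in the *Nampt* and *Nmrk1* values was not tested.

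Some members also moved with a property of the libraries, the slope of log2 CPM on the log2 of a gene's exon length. It was fitted over genes with a mean of at least 1 CPM, ran from 0.163 to 0.371 and overlapped between all groups. Chosen after the data were seen and tested for the 10 members, the relation passed for 5 of them. The slope is fitted on the log2 CPM of these same libraries, so many other genes can follow it. The share of all genes that pass was not obtained, so the 5 cannot be read as a trait of the members. *Sirt2* had r = 0.89 and rho = 0.92 with this slope (permutation p = 1e-05 for both, the smallest that 100000 permutations can give, adjusted p = 0.0001), and r = 0.86 without the 2 farthest libraries. *Sarm1* had r = 0.68 and rho = 0.66 (permutation p = 0.00025 and 0.00055), *Nampt* r = 0.68 and rho = 0.66 (permutation p = 0.00027 and 0.00057) and *Sirt3* r = 0.65 and rho = 0.66 (permutation p = 0.00063 and 0.00069). *Nmrk1* went the other way, with r = -0.55 and rho = -0.66 (permutation p = 0.00522 and 0.00077). The 5 adjusted p of Pearson's r were at most 0.0104. Without the 2 farthest libraries r was 0.54 for *Sarm1*, 0.56 for *Nampt*, 0.61 for *Sirt3* and -0.56 for *Nmrk1*. The astrocyte score also tended to rise with the slope over these libraries. *Nampt* and *Nmrk1* had much the same r with that score, 0.68 and -0.54. For these genes the astrocyte and slope relations are therefore not separate, and which of them holds was not tested. With the slope as a covariate 0 members were called in the 7 comparisons.

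**Figure D4:**
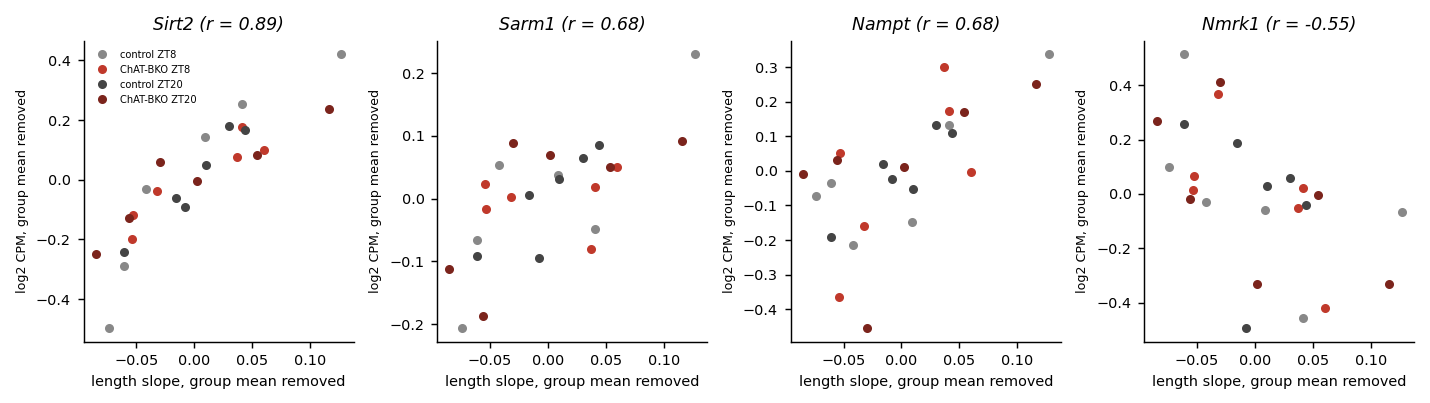
Log2 CPM of 4 members against the length slope of each of the 24 IP libraries, both with the mean of the group removed and coloured by group. *Sirt2*, *Sarm1* and *Nampt* rise with the slope and *Nmrk1* falls, in libraries of all 4 groups.

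The rest of the pathway was read from 4 lists. Of 20 further genes of NAD+ synthesis and transport 16 were tested, as were 20 of 20 other NAD+-consuming enzymes, 20 of 20 genes of axon degeneration and 9 of 9 sirtuin partners and targets. With *Bmal1* loss, 0 of these 65 were called by edgeR at ZT8, at ZT20 or over both times, beside 0.184%, 0.23% and 0.653% of all genes. In each, 1 had an unadjusted p under 0.05, beside 4.83%, 6.28% and 7.28% of all genes. The median log2 fold change over both times was 0.07 for synthesis and transport, 0.02 for the consuming enzymes, 0.00 for axon degeneration and 0.06 for sirtuin partners, beside 0.00 for all genes. The smallest unadjusted p were those of *Parp16*, an ADP-ribosyltransferase of the endoplasmic reticulum, at ZT20 (0.53 on the log2 scale, SE 0.16, adjusted p = 0.378 by edgeR), and of *Cast*, which encodes the calpain inhibitor calpastatin, over both times (-0.12 on the log2 scale, SE 0.046, adjusted p = 0.458 by edgeR).

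Between ZT8 and ZT20 over both genotypes, 3 of the 65 were called, beside 2.62% of all genes, and were higher at night. Summed endothelial markers were also higher then, with medians of 8.64 CPM at ZT8 and 12.3 CPM at ZT20 in controls and of 7.93 and 11.5 CPM in *ChAT-BKO* neurons, and their part in these 3 was not tested. *Pnp*, the purine nucleoside phosphorylase that frees nicotinamide from its riboside, ran from 8.71 to 13.5 CPM in controls and 8.56 to 12.5 CPM in *ChAT-BKO* neurons at ZT8, and from 13.5 to 14.6 and 13 to 18.4 CPM at ZT20. Its log2 difference was 0.35 (SE 0.067, adjusted p = 0.0026 from edgeR), and its counts are uncertain as far as reads were divided with its near copy *Pnp2*, which had at most 1.3 CPM. *Nadk2*, the mitochondrial NAD+ kinase, was higher by 0.26 (SE 0.066, adjusted p = 0.0278 from edgeR). *Map3k13*, a kinase of the axon injury response also called LZK, was higher by 0.19 (SE 0.049, adjusted p = 0.0281 from edgeR). *Pnp* was called in 32 of 32 repeats under other settings or without 1 library. *Nadk2* lost the call, with adjusted p up to 0.0613, on leaving out replicate 4 or 6 of control ZT8, 4 of *ChAT-BKO* ZT8, 2 or 3 of control ZT20, or 1 or 3 of *ChAT-BKO* ZT20. *Map3k13* lost it, with adjusted p up to 0.0761, on leaving out replicate 1 or 2 of control ZT8, 3 or 4 of *ChAT-BKO* ZT8, 6 of control ZT20, or 3 or 6 of *ChAT-BKO* ZT20. Next after these came *Capn1*, a calpain protease, at -0.11 (adjusted p = 0.0507 from edgeR), and *Sirt4*, a mitochondrial sirtuin, at 0.24 (adjusted p = 0.0964 from edgeR).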

How the data were processed

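Spinal cord RNA from 24 HA IP libraries (300 ng of RNA each) and 1 pooled input was sequenced by the authors, aligned to mm10 with STAR 2.7.5 (per the submitters' processing notes) and counted per gene with RSEM, and the deposited values are these expected counts, not normalized. RSEM divides reads that fit several genes, so 6.11% of values were not whole and near copies are uncertain. Counts were rounded, and the 21738 genes whose counts came to 10 or more in the IP libraries together were tested. The test was edgeR 4.0.16 (TMM, quasi-likelihood, two-sided, Benjamini-Hochberg over all genes) in R 4.3.3, with DESeq2 1.42.0 and limma 3.58.1 as alternatives, and the fits were tested on simulated data. Comparisons of 2 groups used their 12 libraries and the others all 24. Intervals cover 95%, CPM of the IP libraries are TMM-scaled, those of the input are scaled to its total, and 2 was the prior count of log2 values. Lengths and positions came from a GENCODE annotation of GRCm38 (87% of tested genes have a length), whereas the authors used Ensembl, and promoter sequences from RefSeq (GRCm38.p6). Relations, also those with the length slope, were tested with 100000 permutations (two-sided) over all IP libraries and not within groups. Each library is 1 mouse.

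Groups and replicate numbers came from the labels. The members, lists, tests and named genes (the members, called genes of the lists with those of smallest p, the 5 genes most like *Nampt* and *Sarm1*, and *Arntl*) were chosen with earlier results of these data known. Alternatives were those named under the dependence on processing. The splicing analysis was not used here.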

Additional observations from a re-analysis of the deposited data

Results flagged for a closer look

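In 1 of the 40 groups of 6 libraries checked (10 members in 4 groups), the extreme library lay apart from the rest. *Sirt3* in *ChAT-BKO* neurons at ZT8 was at 25.3 CPM in replicate 1, below the next lowest at 28.4 CPM, a gap of 0.666 of the group's range against a limit of 0.625. Chance gives about 1 such group in 20.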

How the results depend on the processing

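The count of members called was 0 in all 7 comparisons and stayed 0 in each of 180 repeats, which used DESeq2, limma voom with sample quality weights, edgeR with the size factors of DESeq2, edgeR without a filter or with filterByExpr, the replicate number as a block, the oligodendrocyte markers or the length slope as a covariate, all 24 libraries in the fits of 2 groups, and each library left out in turn (0 to 0 members). In 2 of the DESeq2 fits *Nmnat3* had no adjusted p and could not be called. With the replicate block 0 members were called. No pairing of the mice by number was seen. Over 4 comparisons of 2 groups the correlation of same-numbered libraries ran from -0.2 to 0.36. In these, 0 to 3 of 12 libraries correlated best with their own number. Such a check does not exclude a weak pairing. Of 1800 repeated fold changes 119 changed sign, all of them uncalled and for results of at most 0.1 on the log2 scale. *Sirt1* at ZT20 versus ZT8 in *ChAT-BKO* neurons kept its direction in 21 of 21 repeats, at 0.45 to 0.60, with adjusted p of 0.159 to 0.48. *Nmnat3* over both times was at -0.55 to -0.36, with adjusted p of 0.338 to 0.844, and *Nmnat2* at 0.05 to 0.07, with adjusted p of 0.205 to 0.783. *Nmnat3*, *Sirt1* and *Cd38*, with the fewest counts, have the widest intervals, and smaller differences were not detectable there at this depth.

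With TMM over the input and the IP libraries together, the log2 ratio of IP over input became 1.8 for *Sarm1*, 0.83 for *Nmrk1*, 0.67 for *Nmnat2*, 0.02 for *Nmnat1*, -0.41 for *Sirt3*, -0.73 for *Sirt2*, -0.95 for *Nmnat3*, -1.07 for *Sirt1*, -1.25 for *Nampt* and -3.18 for *Cd38*, so *Nmnat1* moved across 0 and the order was kept. Per kb of the longest transcript, the level in CPM per kb was 53.7 for *Sirt2*, 43.8 for *Nmnat2*, 21.5 for *Sarm1*, 8.59 for *Sirt3*, 2.65 for *Nmrk1*, 2.56 for *Nmnat1*, 2.47 for *Nampt*, 0.687 for *Cd38*, 0.671 for *Sirt1* and 0.525 for *Nmnat3*. Without the 2 libraries farthest from the median of the length slope, *Cd38* passed the adjustment as well (r = -0.51, permutation p = 0.0147, adjusted p = 0.0245).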
